A study of Homo sapiens with 14 samples.

Results

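The genes described here are the protein factors and enzymes that carry out cytosolic translation: 12 initiation factors or their regulators, 6 elongation factors, and 20 genes of the aminoacyl-tRNA synthetases, of which 19 encode enzymes and EEF1E1 encodes a scaffold protein of the multisynthetase complex. They were chosen by name, and all 38 were found by their current symbols among the 61533 genes of the count table. RNA selected for polyA tails was sequenced from SH-EP, an established human neuroblastoma line of mesenchymal type, in 11 libraries of 4 groups. The SPARK-ON line was a single clone expressing n-Myc in a form that lenalidomide brings to phase separate, per the series' design text, and it gave 3 libraries with lenalidomide and 3 with DMSO, the solvent. The control line carried n-Myc without SPARK-ON and gave 2 libraries with lenalidomide and 3 with DMSO. Both lines were thus SH-EP cells expressing n-Myc, no dose or time was found in the labels, and baseline SH-EP cells were not analysed here. Whether the control line was also a clone was not found in the labels, so the SPARK-ON construct, the clone and its passage history cannot be told apart in any difference between the lines.

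Translation starts when eIF2 brings initiator tRNA to the small ribosomal subunit, eIF3 holds the complex together, and the cap-binding protein eIF4E with the scaffold eIF4G and the helicase eIF4A recruits the mRNA. Elongation then needs eEF1A to deliver charged tRNAs, its exchange factors to recharge it with GTP, and eEF2 to move the ribosome along, while the synthetases charge each tRNA with its amino acid. Many of these genes are known MYC-family targets, several synthetase genes are also known targets of ATF4, the transcription factor of the amino acid response, and neuroblastomas with amplified MYCN are known for high protein synthesis.

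Promoter letters that MYC proteins and ATF4 are known to bind were looked up in windows of 250 bases before to 50 bases after the gene start (RefSeq, GRCh38.p14), which were found for 32 of the 38 genes. The E-box CACGTG, the sequence bound by MYC proteins with MAX, was present in 4 of the 32 windows (EIF2B3, EIF4E, EIF4G1 and IARS1), against 8.77% of all 27305 genes with a window. The letters TGATGNAA, read on both strands, form the core of the element bound by ATF4 with a C/EBP partner. They were present in 7 of the 32, all 7 among the 16 synthetase windows, against 4.46% of all genes. These 7 stretches of 30 bases are shown because they include the gene with the largest difference between the lines, NARS1. They are written 5′ to 3′ on the gene's strand, with the match in capitals (TTGCATCA and TTTCATCA are the element read on the opposite strand).
TARS1 (chr5:33440956-33440985): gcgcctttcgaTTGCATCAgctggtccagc
GARS1 (chr7:30594834-30594863): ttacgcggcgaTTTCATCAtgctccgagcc
IARS1 (chr9:92293692-92293721): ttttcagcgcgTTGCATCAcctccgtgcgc
CARS1 (chr11:3057407-3057436): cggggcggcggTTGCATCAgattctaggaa
MARS1 (chr12:57488053-57488082): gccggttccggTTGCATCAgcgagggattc
AARS1 (chr16:70289675-70289704): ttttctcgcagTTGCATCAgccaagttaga
NARS1 (chr18:57621804-57621833): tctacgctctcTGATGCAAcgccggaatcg

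EIF4E had the E-box at 2 places in its window at chr4:98929084-98929383 (minus strand), shown whole because EIF4E is the cap-binding protein, with the E-boxes in capitals.
EIF4E: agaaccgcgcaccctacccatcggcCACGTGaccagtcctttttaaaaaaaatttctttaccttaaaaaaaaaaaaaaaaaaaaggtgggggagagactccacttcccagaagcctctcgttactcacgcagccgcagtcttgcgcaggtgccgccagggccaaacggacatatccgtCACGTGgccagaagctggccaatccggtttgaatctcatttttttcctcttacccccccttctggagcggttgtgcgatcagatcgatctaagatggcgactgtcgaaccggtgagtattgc
The NARS1 window lies at chr18:57621787-57622086 (minus strand) and holds the ATF4-type letters in capitals.
NARS1: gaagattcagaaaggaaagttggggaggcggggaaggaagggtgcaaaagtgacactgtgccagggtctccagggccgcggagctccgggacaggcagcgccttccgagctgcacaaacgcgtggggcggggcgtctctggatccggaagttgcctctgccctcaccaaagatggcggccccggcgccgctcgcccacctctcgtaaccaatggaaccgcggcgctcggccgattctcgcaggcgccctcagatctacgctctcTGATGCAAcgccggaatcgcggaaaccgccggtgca
Such matches describe the letters only, and binding was not measured. Of the 7 genes with TGATGNAA, 3 were called lower in SPARK-ON cells in DMSO (adjusted p below 0.05 over all tested genes, edgeR's quasi-likelihood test; NARS1, GARS1 and MARS1) and 4 with lenalidomide (TARS1 in addition), where 20.4% and 19.7% of all tested genes were called lower. None of the 4 E-box genes was called in DMSO, and EIF4E alone was called lower with lenalidomide.

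Total counts were between 6614671 (SPARK-ON with lenalidomide, replicate 3) and 21511684 per library, so a count of 0 allowed between 0.139 and 0.454 CPM (3 reads, counting error only). CPM, the count relative to the library total after scaling for library composition, is the level used throughout. MYCN stood between 2089 and 2762 CPM in all 11 libraries and was not called different between the lines (log2 change ± SE of -0.09 ± 0.082 in DMSO, adjusted p = 0.404), although without control DMSO replicate 1 its change was -0.20 and called. All 7 mesenchymal SH-EP markers were detected, VIM and CD44 lower and FN1 higher in SPARK-ON cells. Of the adrenergic markers, PHOX2A and ISL1 had 0 counts, TH and DBH reached at most 0.147 CPM, and GATA3 stood at 4.74 to 6.90 CPM in SPARK-ON cells and 6.26 to 8.73 CPM in control cells and was not called. HAND2, near the counting limit, was called higher in SPARK-ON cells (adjusted p = 0.0021 in DMSO and 0.00659 with lenalidomide), at 0.0 to 1.33 CPM against 0.0 to 0.143 CPM in control cells, and its part in the differences between the lines was not tested. Markers of blood, epithelial, endothelial and liver cells and keratinocytes reached at most 2.06 CPM. SPARK-ON lenalidomide replicate 3 and control DMSO replicate 1 lay farthest from the other libraries of their groups, by a root mean square of 0.342 and 0.361 in log2(CPM + 0.5), against 0.262 to 0.310 for the other libraries of groups of 3. Counts without each of them are given beside the results that rest on them.

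Per kilobase of exon, the levels of the 38 genes spanned a wide range. EEF1A1 was highest, at a mean of 1880 CPM per kb in SPARK-ON cells and 2210 CPM per kb in control cells, both in DMSO, and EEF2 was next, at 653 CPM per kb in SPARK-ON cells and 1180 CPM per kb in control cells. EEF1G, the gamma subunit of the eEF1 complex, had 0 counts in every library and was the only member that was not tested. In GENCODE 29, 99.9% of its exon bases lie also in another gene on the same strand, AP002990.1, which had 0 counts too. EIF4A1 and EIF3C were lowest among the genes with counts. EIF4A1 stood at 1.37 CPM per kb in SPARK-ON cells and 0.899 CPM per kb in control cells in DMSO, and EIF3C at 1.87 CPM per kb in SPARK-ON cells and 1.38 CPM per kb in control cells. EIF4A1 shares 48.6% of its exon bases with other genes on its strand, and EIF3C has a near-identical copy, EIF3CL, so their levels are uncertain. Reads could also be split or lost for EEF1D (34.0% of exon bases shared, with genes on the other strand), EEF1E1 (18.7%, with a readthrough gene), and for EEF1A1, EEF1B2 and EIF5A, which have processed copies or close paralogs. The other members shared at most 17.4% of their exon bases with any annotated gene, and 14 members shared none. Summed over the 38 genes, SPARK-ON libraries held 22604 to 22623 CPM with lenalidomide and 22635 to 23719 CPM in DMSO, against 27338 to 28706 CPM in control libraries with lenalidomide and 26948 to 28797 CPM in DMSO. The 2 lines did not overlap in this sum, of which EEF1A1 and EEF2 are the largest parts.

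**Figure D1:**
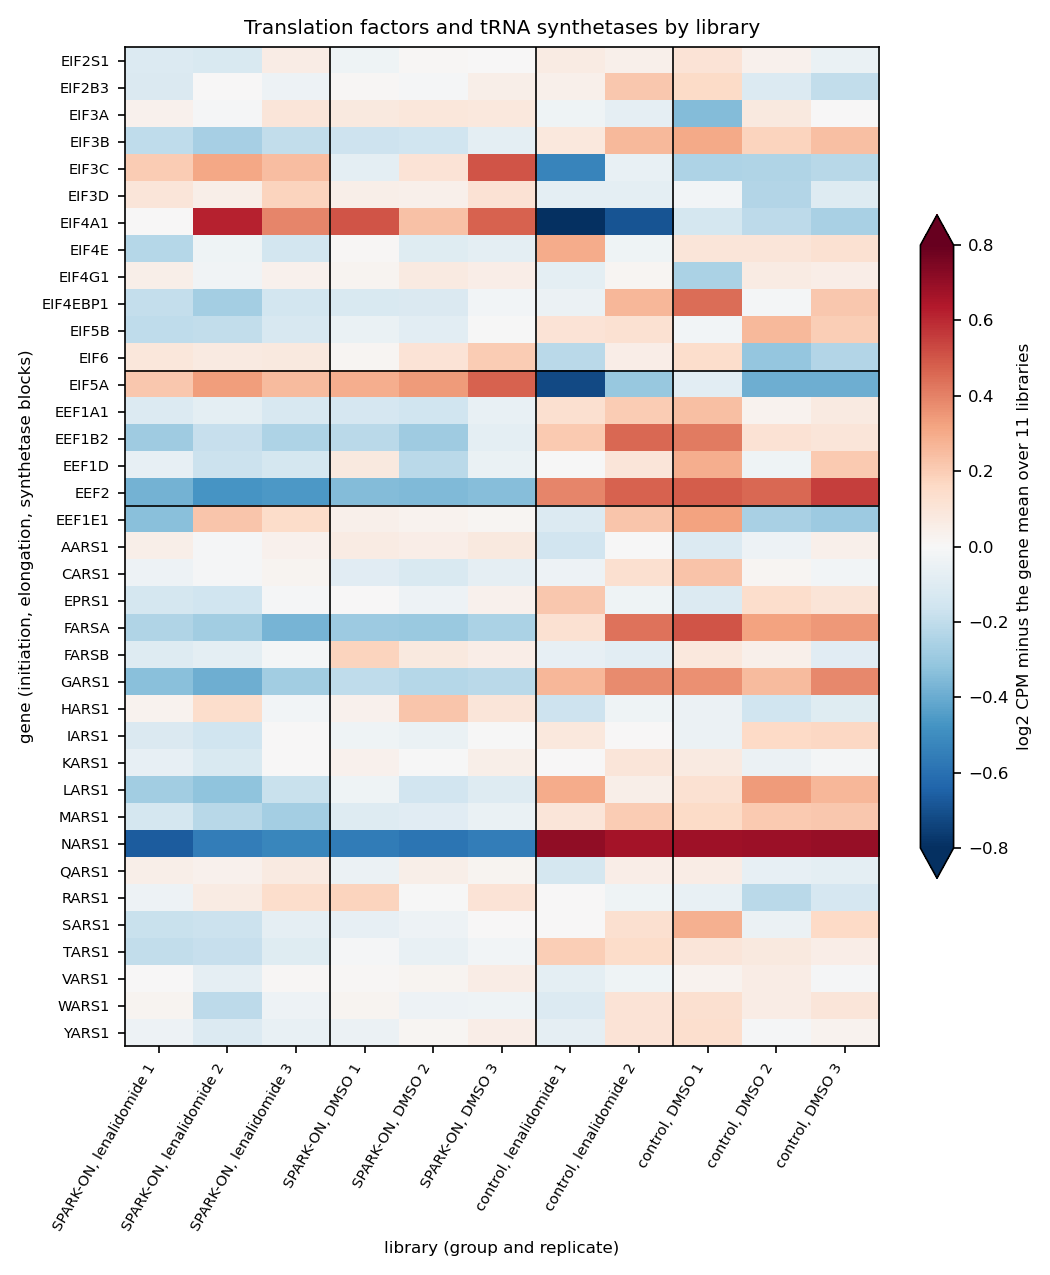
Heat map of the 37 genes with counts (rows, in blocks of initiation, elongation and synthetase genes) in the 11 libraries (columns, by group), coloured by log2 CPM minus the gene's mean over the libraries, with colours saturating at the ends of the bar. NARS1, EEF2, FARSA and GARS1 are blue in all 6 SPARK-ON libraries and red in all 5 control libraries, EIF5A shows the reverse, and most other rows are pale.

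The SPARK-ON line was compared with the control line, where the construct, the clone and its passage history cannot be told apart. In DMSO, 6 of the 37 tested genes were higher and 11 lower in SPARK-ON cells, where 41.6% of all 16056 tested genes were called (21.1% higher and 20.4% lower). With lenalidomide, 3 were higher and 13 lower, where 39.4% of all genes were called (19.7% higher and 19.7% lower). The shares called among these genes, 45.9% and 43.2%, were thus close to those of all genes, and the median log2 changes were -0.052 and -0.113, against 0.011 and 0.015 for all genes. In RNA from whole cultures, fewer cells with a transcript and less of it per cell cannot be told apart. The comparisons in DMSO and with lenalidomide share no library. In both of them 11 genes were called lower (EIF3B, EIF4EBP1, EIF5B, EEF1A1, EEF1B2, EEF2, FARSA, GARS1, LARS1, MARS1 and NARS1; 16.4% of all genes) and 3 higher (EIF3C, EIF4A1 and EIF5A; 16.2% of all genes). The 6 SPARK-ON libraries lay wholly below the 5 control libraries for 10 genes (18.5% of all genes) and wholly above for 4 (18.7% of all genes). The balance between directions depends on the scaling: by library size alone, 10 were higher and 9 lower in DMSO, and 7 higher and 10 lower with lenalidomide. That scaling also moved the median of all genes by about 0.1, to 0.10 and 0.12, and the share of higher calls among all calls to 62.6% and 62.8%, against 50.9% and 50.0% here. Without control DMSO replicate 1, 7 genes were higher and 11 lower in DMSO, and without SPARK-ON lenalidomide replicate 3, 3 were higher and 11 lower with lenalidomide.

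**Figure D2:**
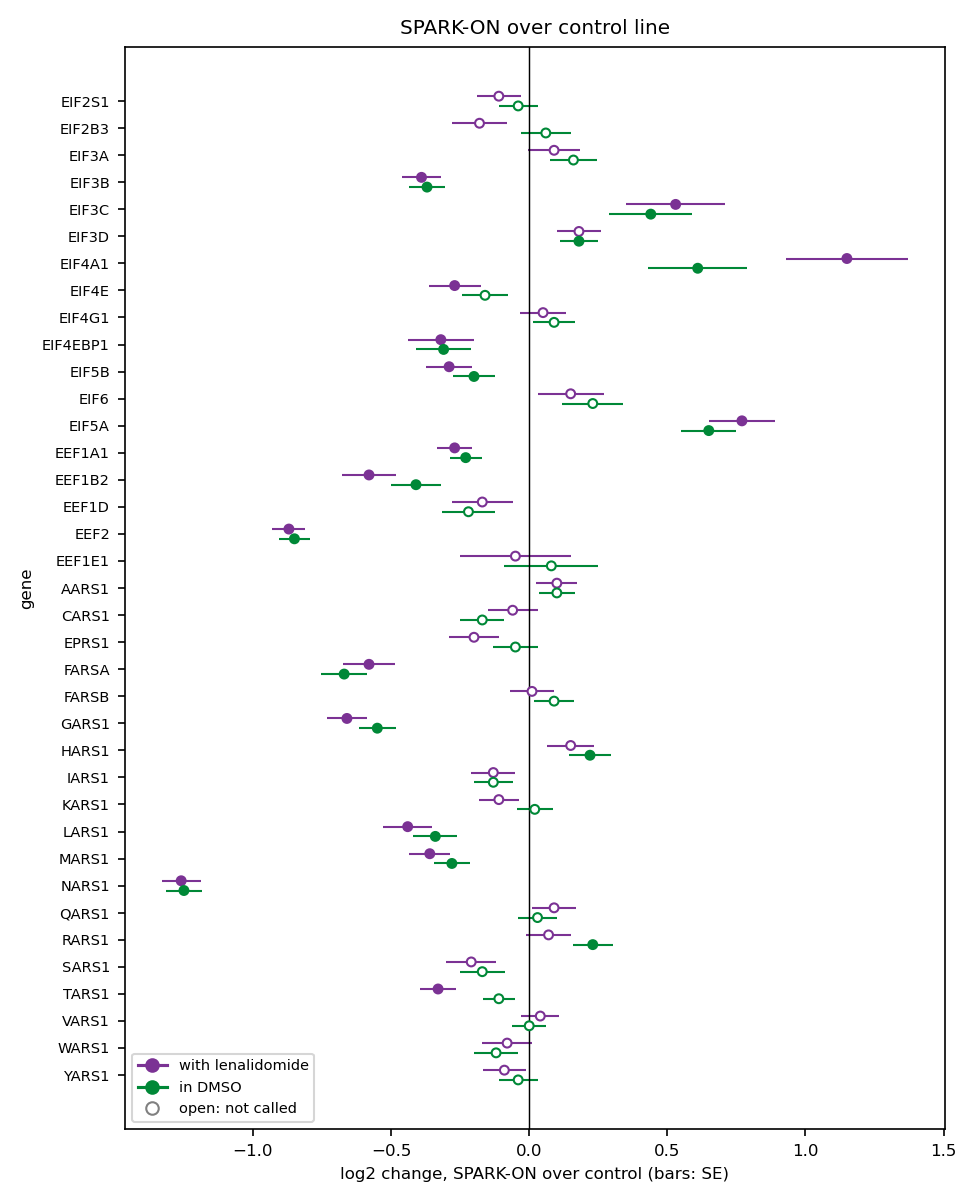
Log2 change of each tested gene, SPARK-ON over control, with lenalidomide (purple) and in DMSO (green), with SE bars from the fit of 11 libraries and filled points for called genes. NARS1 lies at -1.26 and -1.25, EEF2 at -0.87 and -0.85, and EIF5A at 0.77 and 0.65.

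Among the initiation factors, the eIF3 subunit EIF3B was lower in SPARK-ON cells in both comparisons, while the higher calls of EIF3C and EIF3D were fragile. EIF3B, a core subunit of eIF3, had 632.3, 606.0 and 635.5 CPM in SPARK-ON cells with lenalidomide and 650.1, 651.9 and 690.2 CPM in DMSO, against 772.3 and 869.9 CPM in control cells with lenalidomide and 896.3, 824.2 and 859.3 CPM in DMSO. All SPARK-ON libraries lay below all control libraries, with log2 changes of -0.37 ± 0.065 (adjusted p = 0.000137) in DMSO and -0.39 ± 0.072 (adjusted p = 0.000253) with lenalidomide. EIF3C, another core subunit, had only 13.1, 14.1 and 13.5 CPM in SPARK-ON cells with lenalidomide and 10.8, 12.3 and 16.1 CPM in DMSO, against 7.9 and 10.9 CPM in control cells with lenalidomide and 9.61, 9.64 and 9.75 CPM in DMSO. The lowest SPARK-ON library (10.8 CPM) lay just under the highest control library (10.9 CPM), the other SPARK-ON libraries lay above all controls, and the log2 changes were 0.44 ± 0.15 (adjusted p = 0.0272) in DMSO and 0.53 ± 0.18 (adjusted p = 0.0238) with lenalidomide. Without SPARK-ON DMSO replicate 3 the change in DMSO was 0.26 and no longer called, as also without control DMSO replicates 2 (0.44) or 3 (0.45). The call with lenalidomide was lost without SPARK-ON lenalidomide replicate 2 (0.50) or control lenalidomide replicate 1 (0.32). EIF3D, a subunit with a cap-binding role of its own, was between 243.8 and 268.3 CPM in SPARK-ON cells and between 202.2 and 234.4 CPM in control cells. It was called higher in DMSO (0.18 ± 0.07, adjusted p = 0.0448) and not with lenalidomide (0.18 ± 0.079, adjusted p = 0.0746), and the call in DMSO was lost when any DMSO library other than control replicate 1 was left out (0.13 to 0.20). The largest subunit, EIF3A, was not called (0.16 ± 0.084, adjusted p = 0.136 in DMSO), but was by library size (0.25) and without control DMSO replicate 2 (0.24).

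The genes of the cap-binding step gave small or fragile differences. EIF4E, the cap-binding protein, had 99.7, 114.1 and 105.5 CPM in SPARK-ON cells with lenalidomide and 117.7, 109.4 and 110.7 CPM in DMSO, against 143.4 and 114.4 CPM in control cells with lenalidomide and 125.2, 125.3 and 127.3 CPM in DMSO. The lines nearly separated: the highest SPARK-ON library (117.7 CPM) lay just above the lowest control library (114.4 CPM). Its log2 change was -0.16 ± 0.084 (adjusted p = 0.137) in DMSO, not called, and -0.27 ± 0.094 (adjusted p = 0.0272) with lenalidomide, called. The call with lenalidomide was lost without SPARK-ON lenalidomide replicates 1 (-0.23) or 3 (-0.27), or control lenalidomide replicate 1 (-0.10). EIF4EBP1, the inhibitor that binds eIF4E until mTORC1 phosphorylates it, had 93.7, 88.5 and 96.5 CPM in SPARK-ON cells with lenalidomide and 98.0, 98.7 and 105.4 CPM in DMSO, against 103.6 and 128.4 CPM in control cells with lenalidomide and 145.3, 105.7 and 124.0 CPM in DMSO. The highest SPARK-ON library (105.4 CPM) lay just above the lowest control library (103.6 CPM), and the log2 changes were -0.31 ± 0.10 (adjusted p = 0.0208) in DMSO and -0.32 ± 0.12 (adjusted p = 0.0328) with lenalidomide. Left out in turn, SPARK-ON DMSO replicates 1 (-0.29) and 2 (-0.30) and control DMSO replicate 1 (-0.20) each ended the call in DMSO. SPARK-ON lenalidomide replicates 1 (-0.33), 2 (-0.29) and 3 (-0.35) and control lenalidomide replicate 2 (-0.17) each ended the call with lenalidomide. Per kilobase, EIF4EBP1 stood at 10.2 to 12.5 times EIF4E in SPARK-ON libraries and 9.47 to 15.2 times in control libraries, so this ratio overlapped between the lines. Its size comes from the annotated exon lengths, 1073 bases for EIF4EBP1 and 14067 bases for EIF4E, as the CPM of the genes were similar. These lengths join all annotated exons of a gene, so the ratio does not give the relative number of mRNA molecules.

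EIF4G1, the scaffold that joins eIF4E to eIF3, had 1403, 1330.3 and 1394 CPM in SPARK-ON cells with lenalidomide and 1379, 1428 and 1407 CPM in DMSO, against 1288 and 1373 CPM in control cells with lenalidomide and 1139, 1423 and 1406 CPM in DMSO. The lines overlapped, and the log2 changes were 0.09 ± 0.075 (adjusted p = 0.382) in DMSO and 0.05 ± 0.084 (adjusted p = 0.684) with lenalidomide. EIF4A1, the RNA helicase of the cap complex, had only 5.51, 8.44 and 7.21 CPM in SPARK-ON cells with lenalidomide and 7.8, 6.47 and 7.62 CPM in DMSO, against 2.91 and 3.41 CPM in control cells with lenalidomide and 4.99, 4.76 and 4.59 CPM in DMSO. All SPARK-ON libraries were higher than all control libraries, with log2 changes of 0.61 ± 0.18 (adjusted p = 0.0106) in DMSO and 1.15 ± 0.22 (adjusted p = 0.000431) with lenalidomide. EIF4A1 lay above the counting limits, but its level is uncertain, as 48.6% of its exon bases are shared with other genes on its strand. EIF5B, the GTPase that joins the ribosomal subunits, was between 169.0 and 194.0 CPM in SPARK-ON cells and between 191.6 and 233.0 CPM in control cells. It was called lower in DMSO (-0.20 ± 0.075, adjusted p = 0.0423) and with lenalidomide (-0.29 ± 0.083, adjusted p = 0.00953). Its call in DMSO ended when any DMSO library other than control replicate 1 was left out (-0.22 to -0.14). EIF6, which keeps the large subunit from joining too early, had 71.3, 70.2 and 70.7 CPM in SPARK-ON cells with lenalidomide and 67.6, 72.2 and 77.1 CPM in DMSO, against 57.6 and 69.4 CPM in control cells with lenalidomide and 73.6, 53.9 and 56.9 CPM in DMSO. The lines overlapped, and it was not called in DMSO (0.23 ± 0.11, adjusted p = 0.088) or with lenalidomide (0.15 ± 0.12, adjusted p = 0.337), but without control DMSO replicate 1 its change in DMSO was 0.37 and called. EIF2S1, the eIF2 subunit that stress kinases phosphorylate, and EIF2B3, a subunit of its exchange factor, were not called in either comparison, with log2 changes between -0.18 and 0.06.

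The elongation factors held some of the largest differences. EEF2, the translocation factor, had 2577, 2414 and 2432 CPM in SPARK-ON cells with lenalidomide and 2628, 2619 and 2639 CPM in DMSO, against 4383 and 4651 CPM in control cells with lenalidomide and 4679, 4610.3 and 4920.2 CPM in DMSO. The lines were far apart, and SPARK-ON cells had about 0.55 times the control level, with log2 changes of -0.85 ± 0.055 (adjusted p = 6.27e-10) in DMSO and -0.87 ± 0.06 (adjusted p = 2.22e-09) with lenalidomide. EEF1A1, the main carrier of charged tRNA and the most abundant member, had 11208, 11473 and 11082 CPM in SPARK-ON cells with lenalidomide and 11057, 10831 and 11623 CPM in DMSO, against 13255 and 13954 CPM in control cells with lenalidomide and 14304, 12379 and 12714 CPM in DMSO. All SPARK-ON libraries lay below all control libraries, and the log2 changes were -0.23 ± 0.058 (adjusted p = 0.00335) in DMSO and -0.27 ± 0.064 (adjusted p = 0.00241) with lenalidomide. EEF1B2, a subunit of the exchange factor that recharges eEF1A with GTP, had 447.2, 479.6 and 457.9 CPM in SPARK-ON cells with lenalidomide and 467.7, 446.3 and 515.0 CPM in DMSO, against 629.4 and 748.7 CPM in control cells with lenalidomide and 726.3, 588.4 and 582.8 CPM in DMSO. It too was lower in every SPARK-ON library (-0.41 ± 0.089, adjusted p = 0.00118 in DMSO and -0.58 ± 0.099, adjusted p = 0.000137 with lenalidomide). EEF1D, the delta subunit of the same complex, did not pass the test (-0.22 ± 0.097, adjusted p = 0.0775 in DMSO and -0.17 ± 0.11, adjusted p = 0.226 with lenalidomide), but was called in DMSO without SPARK-ON DMSO replicate 1 (-0.29) or control DMSO replicate 2 (-0.31).

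EIF5A, the hypusine-bearing factor that helps ribosomes over poorly reactive residues, went the other way. It had 304.3, 330.0 and 311.8 CPM in SPARK-ON cells with lenalidomide and 319.7, 330.9 and 362.4 CPM in DMSO, against 158.9 and 211.9 CPM in control cells with lenalidomide and 246.5, 199.4 and 199.8 CPM in DMSO. Every SPARK-ON library was above every control library, with log2 changes of 0.65 ± 0.10 (adjusted p = 4.1e-05) in DMSO and 0.77 ± 0.12 (adjusted p = 3.56e-05) with lenalidomide. EEF1A2, the second eEF1A isoform and not one of the 38 genes, was also higher in SPARK-ON cells, at 283.4 to 345.0 CPM against 115.0 to 159.5 CPM in control cells (1.16 ± 0.080 in DMSO, adjusted p = 1.35e-09). Of the summed eEF1A transcripts per kilobase, EEF1A2 took 2.91% to 3.52% in SPARK-ON libraries and 1.04% to 1.40% in control libraries.

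**Figure D3:**
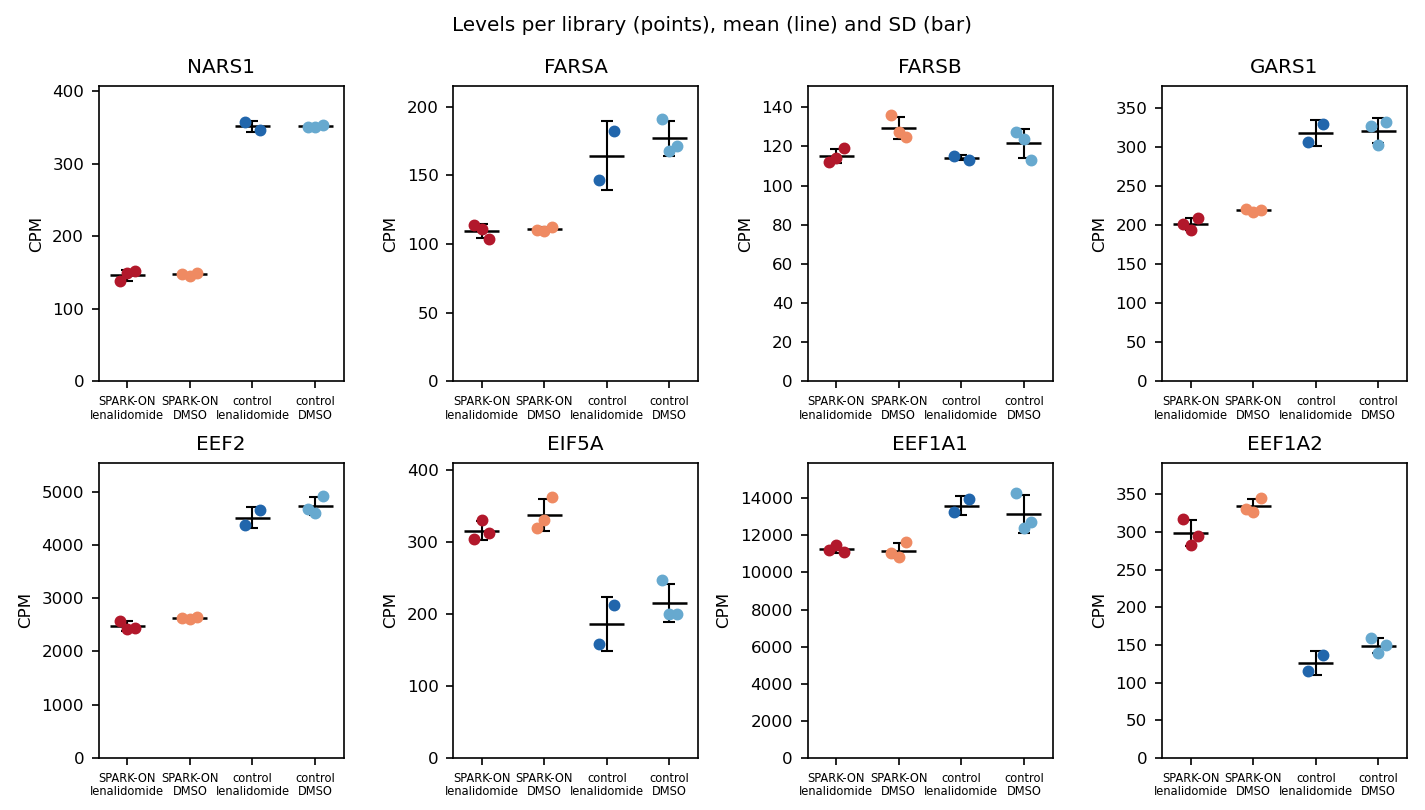
CPM of 4 synthetase genes and 4 elongation factor genes in each library (points), with the group mean (line) and SD (bar), for SPARK-ON and control cells with lenalidomide or DMSO, on axes that start at 0. NARS1 lies between 138.0 and 152.2 CPM in SPARK-ON libraries and between 346.2 and 356.7 CPM in control libraries, while FARSB overlaps between the lines.

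Of the 20 synthetase genes, 2 were higher and 5 lower in SPARK-ON cells in DMSO, and 0 were higher and 6 lower with lenalidomide. That is 7 of 20 called in DMSO and 6 of 20 with lenalidomide, where 41.6% and 39.4% of all tested genes were called. NARS1, which charges asparagine tRNA, showed the largest difference of all 37 genes. It had 138.0, 149.2 and 152.2 CPM in SPARK-ON cells with lenalidomide and 148.0, 145.8 and 149.0 CPM in DMSO, against 356.7 and 346.2 CPM in control cells with lenalidomide and 350.2, 351.1 and 353.8 CPM in DMSO. The groups within a line hardly differed, and SPARK-ON cells held 0.42 times the control level (-1.25 ± 0.064, adjusted p = 2.59e-11 in DMSO and -1.26 ± 0.07, adjusted p = 1.16e-10 with lenalidomide). GARS1, the glycine enzyme, had 201.6, 194.2 and 209.9 CPM in SPARK-ON cells with lenalidomide and 220.6, 217.6 and 219.3 CPM in DMSO, against 306.3 and 330.0 CPM in control cells with lenalidomide and 327.8, 302.6 and 332.4 CPM in DMSO. It was lower in every SPARK-ON library, with log2 changes of -0.55 ± 0.066 (adjusted p = 2.25e-06) in DMSO and -0.66 ± 0.073 (adjusted p = 1.11e-06) with lenalidomide. FARSA, the alpha subunit of the phenylalanine enzyme, had 114.0, 111.1 and 104.0 CPM in SPARK-ON cells with lenalidomide and 110.2, 109.5 and 112.8 CPM in DMSO, against 146.7 and 182.3 CPM in control cells with lenalidomide and 191.2, 168.1 and 171.4 CPM in DMSO. SPARK-ON libraries were again all lower (-0.67 ± 0.084, adjusted p = 3.23e-06 in DMSO and -0.58 ± 0.093, adjusted p = 6.89e-05 with lenalidomide). FARSB, the beta subunit of the same tetramer, was between 111.9 and 135.9 CPM in SPARK-ON cells and between 113.1 and 127.6 CPM in control cells, and was not called (0.09 ± 0.072, adjusted p = 0.339 in DMSO and 0.01 ± 0.081, adjusted p = 0.94 with lenalidomide). The ratio of FARSA to FARSB per kilobase, formed after their values were seen, was 1.12 to 1.41 in SPARK-ON libraries and 1.76 to 2.22 in control libraries.

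The enzymes of the multisynthetase complex split. LARS1, the leucine enzyme that is also a leucine sensor for mTORC1, had 261.1, 253.6 and 280.0 CPM in SPARK-ON cells with lenalidomide and 309.5, 284.8 and 294.8 CPM in DMSO, against 388.9 and 327.2 CPM in control cells with lenalidomide and 344.9, 401.7 and 381.4 CPM in DMSO. Its log2 change was -0.34 ± 0.079 (adjusted p = 0.00181) in DMSO and -0.44 ± 0.088 (adjusted p = 0.000651) with lenalidomide, and all SPARK-ON libraries were lower. MARS1, the methionine enzyme, was between 157.5 and 183.2 CPM in SPARK-ON cells and between 203.8 and 220.8 CPM in control cells (-0.28 ± 0.066, adjusted p = 0.00251 in DMSO and -0.36 ± 0.074, adjusted p = 0.000741 with lenalidomide). RARS1, the arginine enzyme, was between 191.8 and 222.7 CPM in SPARK-ON cells and between 169.7 and 197.8 CPM in control cells, and was called higher in DMSO (0.23 ± 0.073, adjusted p = 0.0168) and not with lenalidomide (0.07 ± 0.083, adjusted p = 0.531). Without SPARK-ON DMSO replicates 1 (0.19) or 3 (0.23), or control DMSO replicate 2 (0.19), the RARS1 call was lost. The other 4 enzymes of the complex, EPRS1, IARS1, KARS1 and QARS1, were not called in either comparison. Among the free enzymes, HARS1 was between 133.1 and 157.6 CPM in SPARK-ON cells and between 120.6 and 131.8 CPM in control cells, and was called in DMSO only (0.22 ± 0.076, adjusted p = 0.0251, and 0.15 ± 0.085, adjusted p = 0.174 with lenalidomide). The HARS1 call was lost without SPARK-ON DMSO replicates 2 (0.17) or 3 (0.23), or control DMSO replicates 2 (0.19) or 3 (0.22). TARS1, the threonine enzyme, was called lower with lenalidomide only (-0.33 ± 0.066, adjusted p = 0.000593, and -0.11 ± 0.059, adjusted p = 0.165 in DMSO).

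Neither EEF1E1 nor WARS1 passed the test. EEF1E1, the scaffold protein AIMP3, had 9.39, 13.8 and 13.1 CPM in SPARK-ON cells with lenalidomide and 12.2, 12.1 and 12 CPM in DMSO, against 11 and 13.8 CPM in control cells with lenalidomide and 14.8, 9.88 and 9.7 CPM in DMSO. The groups overlapped (0.08 ± 0.17, adjusted p = 0.75 in DMSO and -0.05 ± 0.20, adjusted p = 0.851 with lenalidomide). WARS1, the tryptophan enzyme known as an interferon-inducible gene, had 88.3, 75.2 and 84.4 CPM in SPARK-ON cells with lenalidomide and 88.3, 84.5 and 84.9 CPM in DMSO, against 80.7 and 93.7 CPM in control cells with lenalidomide and 95.1, 90.8 and 93.2 CPM in DMSO. The lines overlapped, and the log2 changes were -0.12 ± 0.081 (adjusted p = 0.274) in DMSO and -0.08 ± 0.091 (adjusted p = 0.522) with lenalidomide. AARS1, CARS1, SARS1, VARS1 and YARS1 were not called either, with log2 changes between -0.21 and 0.10.

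A few of these calls also ended under other settings. Scaling by library size ended those of EIF4EBP1 (-0.22 in both comparisons), EIF5B (-0.11 in DMSO and -0.19 with lenalidomide) and EIF4E (-0.17 with lenalidomide), and brought EIF6 (0.33), EIF3A (0.25), AARS1 (0.19) and FARSB (0.18) past the threshold in DMSO and EIF3D (0.29), HARS1 (0.26), AARS1 (0.20) and QARS1 (0.20) with lenalidomide. In DMSO, RLE scaling ended the call of EIF5B (-0.19), the absence of a filter those of EIF3D (0.18), EIF5B (-0.20) and HARS1 (0.22), and a fit of the DMSO groups alone those of EIF3D (0.19) and EIF5B (-0.19). With DESeq2 EIF3D was called with lenalidomide (0.20). With limma-voom EIF3C was not called (0.43 in DMSO and 0.53 with lenalidomide), and EIF6 was called in DMSO (0.25). The calls of NARS1, EEF2, FARSA, GARS1, EIF5A, EIF4A1, EIF3B, EEF1A1, EEF1B2, LARS1 and MARS1 held in both comparisons under every setting and every omission of a library that was run.

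Some of these genes lie among neighbours on the chromosome that differed in the same direction. Neighbours are counted by their calls in DMSO, where 20.4% of all tested genes were called lower and 21.1% higher. Within 1 Mb of NARS1, 7 of 9 tested neighbours were lower in SPARK-ON cells in DMSO and 0 were higher, with a median log2 change of -0.64. Around EEF2, 30 of 47 neighbours were lower and 5 higher (median -0.50), and around FARSA 30 of 50 were lower and 1 higher (median -0.58). The neighbours of EIF5A were mostly higher, 35 of 63 against 1 lower (median 0.58), and those of EIF4A1, largely the same genes, had a median of 0.59. EIF3D had 13 of 19 neighbours higher (median 0.92), and EIF3B had 9 of 20 lower and 2 higher (median -0.23). For some other called genes the neighbours had medians nearer 0 or of the opposite sign: the median log2 changes were -0.12 around GARS1, 0.28 around EEF1B2, 0.23 around LARS1 and -0.04 around MARS1. The part of the neighbourhood in these differences was not tested.

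**Figure D4:**
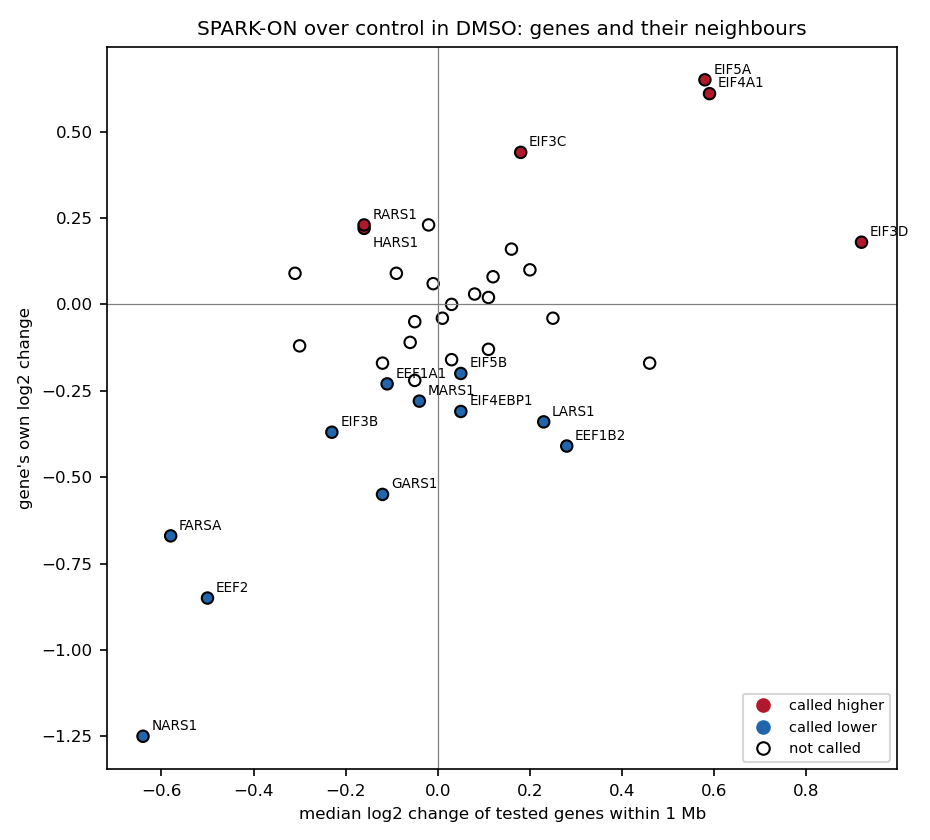
Log2 change of each of the 37 tested genes in DMSO, SPARK-ON over control (vertical axis), against the median log2 change of the tested genes within 1 Mb of it (horizontal axis), with red for called higher, blue for called lower and white for not called. NARS1 (-1.25 against -0.64), EEF2 and FARSA lie at the lower left, and EIF5A and EIF4A1 at the upper right, while GARS1, LARS1 and EEF1B2 were lower beside neighbours with medians of -0.12, 0.23 and 0.28.

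Lenalidomide brought 0 of the 37 genes past the threshold in SPARK-ON cells in edgeR's test, where 0.0685% of all genes were called, and DESeq2 and limma-voom called 0 too. At an unadjusted p below 0.05 there were 2, FARSB and TARS1, against 5.36% of all genes. The log2 changes ran from -0.17 to 0.08. They were small and mostly of 1 sign: 32 of 37 were below 0, against 48.2% of all genes, and the median was -0.059, against 0.007. For 12 genes the 3 lenalidomide libraries lay wholly below the 3 DMSO libraries, and for 1 (CARS1) wholly above, against 8.17% and 9.62% of all genes. The 12 were EIF3B, EIF4EBP1, EIF5B, EEF2, AARS1, FARSB, GARS1, LARS1, MARS1, SARS1, TARS1 and VARS1. All these genes were read from the same 6 libraries, so such counts are not counts of independent measurements. Without lenalidomide replicate 3, 31 of 37 were below 0 and the median was -0.071.

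FARSB had 111.9, 114.2 and 119.1 CPM with lenalidomide and 135.9, 127.1 and 125.0 CPM in DMSO (-0.17 ± 0.072, adjusted p = 0.868). LARS1 had 261.1, 253.6 and 280.0 CPM with lenalidomide and 309.5, 284.8 and 294.8 CPM in DMSO (-0.16 ± 0.079, adjusted p = 0.925). TARS1 had 504.3, 509.3 and 540.4 CPM with lenalidomide and 574.1, 554.0 and 570.0 CPM in DMSO (-0.13 ± 0.060, adjusted p = 0.924). The treated libraries were lower for all 3 genes, without overlap. The spread used in these tests comes from all 11 libraries (coefficient of variation 9.4%), while it was 4.71% among the 6 SPARK-ON libraries and 12.9% among the 5 control libraries. When the 6 SPARK-ON libraries were fitted by themselves, these 3 genes were called lower and 0 higher, where 0.805% of all genes were called lower and 1.79% higher. That fit gave FARSB -0.18 ± 0.050 (adjusted p = 0.0376), LARS1 -0.17 ± 0.044 (adjusted p = 0.014) and TARS1 -0.13 ± 0.039 (adjusted p = 0.0437). In that fit 13 genes had an unadjusted p below 0.05, against 14.4% of all genes. The calls did not stand up to the omission of single libraries: 0 genes were called without lenalidomide replicate 1, without lenalidomide replicate 2 or without DMSO replicate 1, 1 without DMSO replicate 2, 2 without DMSO replicate 3 and 4 without lenalidomide replicate 3.

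NARS1, EEF2 and EIF5A, which differed widely between the lines, had log2 changes of -0.01 ± 0.065, -0.09 ± 0.055 and -0.10 ± 0.10 with lenalidomide in SPARK-ON cells. The differences between the lines were thus there in DMSO, without lenalidomide. EIF4E, EIF4EBP1 and EIF4G1 had log2 changes of -0.08 ± 0.085, -0.12 ± 0.10 and -0.03 ± 0.075. EIF6, EEF1A1, EEF1E1 and WARS1 had log2 changes of -0.03 ± 0.11, 0.01 ± 0.058, -0.01 ± 0.18 and -0.06 ± 0.082, none of them called.

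In control cells lenalidomide also brought 0 of the 37 genes past the threshold by edgeR, DESeq2 or limma-voom, where 0.0436% of all genes were called, and only EIF4A1 had an unadjusted p below 0.05 (-0.59 ± 0.22, adjusted p = 0.923; 4.82% of all genes). EIF4A1 had 2.91 and 3.41 CPM with lenalidomide and 4.99, 4.76 and 4.59 CPM in DMSO, above the counting limits but uncertain because of its shared exon bases. The signs were divided, with 22 of 37 below 0 (50.0% of all genes) and a median of -0.030, against 0.000 for all genes. Without control DMSO replicate 1, still 0 genes were called and 6 had an unadjusted p below 0.05, against 10.6% of all genes in that fit. The test of the difference in response between the lines called 0 of the 37 by each of these 3 tools, where 0.0% of all genes were called, with 1 gene, TARS1, at an unadjusted p below 0.05 (4.17% of all genes). TARS1 was lower in every treated library in SPARK-ON cells and higher in every treated library in control cells, which held for 0.442% of all genes. Opposite sides in either direction held for 0.965%.

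**Figure D5:**
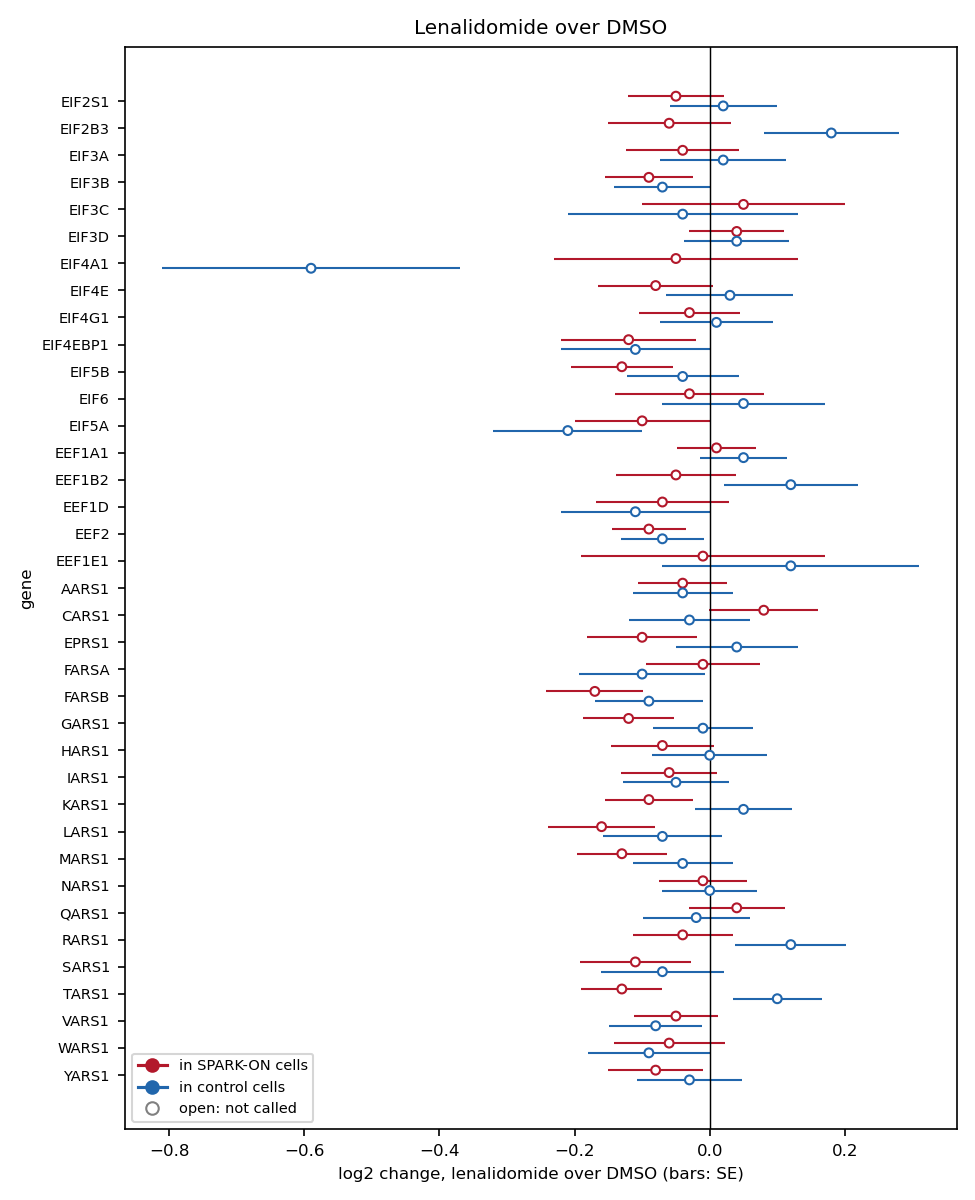
Log2 change of each tested gene, lenalidomide over DMSO, in SPARK-ON cells (red) and control cells (blue), with SE bars from the fit of 11 libraries and open points because no gene was called. Most red points lie a little left of 0 (median -0.059) and the blue points on both sides (median -0.030).

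The rest of the translation machinery and its 2 main regulators were read from lists of further genes, whose counts stand beside 21.1% of all tested genes called higher and 20.4% lower in DMSO, and 19.7% called in each direction with lenalidomide. Of 32 other initiation factors, 1 was higher and 9 lower in SPARK-ON cells in DMSO, and 0 higher and 11 lower with lenalidomide. EIF3K (-0.66 ± 0.10, adjusted p = 4.94e-05), EIF4A2 (-0.38 ± 0.063, adjusted p = 7.36e-05), EIF2S3 (-0.37 ± 0.059, adjusted p = 6.23e-05) and the polyA-binding partner PAIP1 (-0.30 ± 0.072, adjusted p = 0.00241) were lower in DMSO. Among 18 other elongation, termination and recycling genes, 5 were higher and 1 lower in DMSO, and 3 higher and 3 lower with lenalidomide. DPH1, which makes the diphthamide residue of eEF2 (0.92 ± 0.089), and the rescue factor PELO (0.70 ± 0.088) were higher in DMSO, and the termination factor GSPT1, also a known degradation target of some cereblon ligands, was lower (-0.38 ± 0.062, adjusted p = 6.74e-05). AIMP2, a scaffold protein of the multisynthetase complex, was lower in DMSO (-0.32 ± 0.075) and with lenalidomide (-0.28 ± 0.084, a call lost without control lenalidomide replicate 1, at -0.26, and by library size, at -0.18), and the scaffold gene AIMP1 was not called in either comparison. Of 15 tested mitochondrial synthetases, 2 were higher and 1 lower in DMSO, and 4 higher and 0 lower with lenalidomide. LARS2, the mitochondrial leucine enzyme, was higher in DMSO (0.43 ± 0.070), whereas none of the 19 cytosolic synthetase enzymes described above exceeded 0.23.

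The integrated stress response, which runs through phosphorylation of eIF2 and ATF4, gave 4 genes higher and 10 lower of 18 in DMSO, and 4 higher and 9 lower with lenalidomide, where 20.4% and 19.7% of all genes were lower. ATF4 itself had 255.5, 243.7 and 258.1 CPM in SPARK-ON cells with lenalidomide and 269.7, 268.4 and 288.6 CPM in DMSO, against 305.7 and 340.0 CPM in control cells with lenalidomide and 378.0, 323.2 and 329.8 CPM in DMSO. It was lower in every SPARK-ON library (-0.32 ± 0.074 in DMSO, adjusted p = 0.00199). CHAC1 (-1.80 ± 0.15, adjusted p = 1.29e-08), PSAT1 (-0.56 ± 0.063, adjusted p = 1.18e-06) and the kinase EIF2AK1 (-0.45 ± 0.067), all of this list, were lower too. Members of the same list moved the other way: SLC7A11, the cystine carrier (0.68 ± 0.11, adjusted p = 9.07e-05), its partner SLC3A2 (0.39 ± 0.083), DDIT3 (0.65 ± 0.20, a call lost without SPARK-ON DMSO replicate 3, at 0.55, or control DMSO replicate 2, at 0.43) and PPP1R15A (0.48 ± 0.096) were higher. The level of DDIT3 is uncertain, as 39.6% of its exon bases are shared, 27.2% with MARS1 on the other strand. A list of 14 genes held the mTORC1 branch, which acts on EIF4EBP1, and the eIF4E kinases MKNK1 and MKNK2. Of the 14, 3 were higher and 3 lower in DMSO, and 2 higher and 3 lower with lenalidomide, where 41.6% and 39.4% of all genes were called. DDIT4, an inhibitor of mTORC1, was lower (-1.82 ± 0.11, adjusted p = 2.18e-10), as was MKNK2, a kinase of eIF4E (-0.98 ± 0.075, adjusted p = 6.81e-09), and RPS6 (-0.38 ± 0.084). DDIT4 shares 41.2% of its exon bases with a gene on the other strand that is not in the count table. TSC1, another inhibitor of mTORC1, was higher (0.48 ± 0.12, adjusted p = 0.00297). In SPARK-ON cells lenalidomide brought 0 of these further genes past the threshold in edgeR's fit of 11 libraries, with at most 2 genes of a list at an unadjusted p below 0.05. When the 6 SPARK-ON libraries were fitted by themselves, 2 other initiation factors, 3 genes of elongation, termination and recycling and 1 of the stress response were called lower, and 1 of the mTORC1 branch was called higher, where 0.805% of all genes were lower and 1.79% higher.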

How the data were processed

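Levels were measured by polyA RNA sequencing. The deposited values are raw counts per gene, whole numbers without normalization, and per the submitters' processing notes the authors used FastQC, fastp, HTSeq, edgeR and hg38; versions, aligner, strand setting and annotation are not given in the sources used here. By the labels, 11 columns of the table were matched to samples and used, and 3 columns that matched no labelled sample were not, so the planned comparisons with baseline cells were not made. Genes were kept by filterByExpr (minimum count 10, leaving 16056), scaled by TMM and fitted over 4 groups (7 residual degrees of freedom) with edgeR 4.0.16 in R 4.3.3. Contrasts were tested two-sided by its quasi-likelihood F test, with Benjamini-Hochberg adjustment over all tested genes; a gene is called at an adjusted p below 0.05. SE is the log2 change over the root of F. The procedure was checked on simulated counts for the comparison of the lines in DMSO only, with the same spread in both lines. That check did not cover the lenalidomide comparisons, a spread that differs between the lines, or changes as small as most of those reported here.

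Gene names were matched for 61415 identifiers. Exon overlaps and lengths come from GENCODE 29, and promoter letters from RefSeq. The members and the lists were chosen with earlier results of these data known. Members named in full are 9 fixed ones and up to 10 called ones per comparison with the largest change, and from each further list up to 4 called genes with the smallest p; ATF4, SLC3A2, DDIT3, PPP1R15A, VIM, CD44, FN1 and the other members named were chosen after their values were seen. Replicates carry numbers only, and nothing says they were separate cultures, so p-values measure the spread between these samples. Alternatives were RLE and library-size scaling, no filter, DESeq2 1.42.0, limma-voom 3.58.1, the groups compared alone, a replicate block and omission of each library. The limma-voom fit gave each line its own spread. Omission of each library within the fit of the groups compared was chosen after seeing the data. Plots were made in matplotlib 3.10.9.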

Additional observations from a re-analysis of the deposited data

Results flagged for a closer look

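TARS1, the threonine enzyme, lay on opposite sides of its DMSO libraries in the 2 lines with lenalidomide. It had 504.3, 509.3 and 540.4 CPM with lenalidomide and 574.1, 554.0 and 570.0 CPM in DMSO in SPARK-ON cells, and 663.8 and 639.2 CPM with lenalidomide and 619.1, 609.1 and 600.1 CPM in DMSO in control cells. Every treated library was lower in SPARK-ON cells and every treated library was higher in control cells, a pattern that 0.442% of all tested genes showed. Opposite sides in either direction were shown by 0.965% of all tested genes. The test of the difference gave a log2 value of -0.22 ± 0.089 (SPARK-ON minus control response; adjusted p = 1.0 in edgeR's quasi-likelihood test, unadjusted p below 0.05), so it did not pass the correction over all genes.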

How the results depend on the processing

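Under the alternatives, 84 counts of called members stayed within 1.5 times the reported one and 5 did not. All 5 concern lenalidomide in SPARK-ON cells: 3 members were called when only the groups compared were fitted, against 0 in the fit of 11 libraries, and omission of single libraries from that smaller fit gave 0 to 4. The spread differed between the lines, and limma-voom, which gave each line its own spread, called 0 members over the 11 libraries. Why the smaller fit gave other counts was not tested. Of the values of single genes, 1417 kept direction and call, 78 kept direction and lost the call, 15 gained it and 29 changed sign. All sign changes were of changes that were not called.

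Sign changes under other settings were those of EEF1A1 with lenalidomide in SPARK-ON cells without a filter (-0.0041), EIF4G1 with lenalidomide in control cells (-0.0002 by library size), EEF1E1 and WARS1 between lines with lenalidomide (0.05 and 0.03 by library size) and FARSB there without a filter (-0.01). Omission of single libraries gave these ranges. With lenalidomide in SPARK-ON cells: NARS1 -0.04 to 0.03, EIF6 -0.08 to 0.02, EEF1A1 -0.01 to 0.04, EEF1E1 -0.15 to 0.16 and WARS1 -0.11 to 0.01. With lenalidomide in control cells: EIF4E -0.14 to 0.18, EIF4EBP1 -0.28 to 0.04, EIF4G1 -0.09 to 0.06, EIF6 -0.10 to 0.19, EEF1E1 -0.06 to 0.34 and WARS1 -0.21 to 0.01. Between lines in DMSO: EIF4G1 -0.02 to 0.14 and EEF1E1 -0.03 to 0.30. Between lines with lenalidomide: EEF1E1 -0.21 to 0.12, WARS1 -0.18 to 0.03 and FARSB -0.01 to 0.03.

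Same-numbered libraries did not deviate together (correlations of -0.182 to 0.015), nor did every library correlate best with its own number, so the numbers are taken as names. With a replicate block, 0 members were called for lenalidomide in either line and for the difference in response, 15 between the lines in DMSO (EIF3D, at 0.18, and EIF5B, at -0.19, were not called) and 14 with lenalidomide (EIF4E, at -0.27, and EIF4EBP1, at -0.34, were not called). Depth limits EIF4A1, EIF3C and EEF1E1 most, each under 20 CPM, and at the depth of SPARK-ON lenalidomide replicate 3 a transcript under 0.454 CPM could go unseen.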
